A study of Homo sapiens and Mus musculus with 12 samples.

Results

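The genes of the AP-1 transcription factor were followed in 2 breast cancer cell lines treated with ponatinib. They were chosen by symbol and comprised the 4 genes of the FOS family (*FOS*, *FOSB*, *FOSL1* and *FOSL2*), the 3 genes of the JUN family (*JUN*, *JUNB* and *JUND*) and the 3 small MAF genes (*MAFF*, *MAFG* and *MAFK*). All 10 were found among 63677 human gene entries and all 10 mouse genes of the same symbol among 47729 mouse entries. Each of the 20 passed the filter on low counts, which left 14610 human and 13286 mouse genes for testing.

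RNA-seq was performed on MDA-MB-231, an established human triple-negative breast cancer (TNBC) cell line, and on 4T1, an established mouse mammary carcinoma cell line, both labelled as wild-type epithelial cells of the breast. Cells of each line received 1 μM ponatinib, an inhibitor of several tyrosine kinases, or its solvent DMSO for 24 h, with 3 libraries in each of the 4 groups and 12 in all. The labels do not say whether the libraries of a group came from separate cultures, so p-values measure only the spread between these libraries, and each line stands for 1 cell line rather than for a tumour type. Libraries held 15012884 to 18951493 counts. Epithelial markers (*EPCAM*, *CDH1* and 4 keratins) added up to 2034 to 2480 CPM (the count of a gene scaled to a common library size) with DMSO and 2985 to 3787 CPM with ponatinib in MDA-MB-231, where *CDH1* was at 0 with DMSO, and to 7889 to 9087 and 8028 to 8841 CPM in 4T1. Leukocyte markers summed to at most 2.36 CPM in any library. Fibroblast markers went from 26.5 to 31.5 CPM with DMSO to 81.1 to 87.8 CPM with ponatinib in MDA-MB-231, mostly through *COL1A1*, and from 3.45 to 4.71 CPM to 7.96 to 8.46 CPM in 4T1. Endothelial markers lay between 3.47 and 6.02 CPM in all MDA-MB-231 libraries and went from 3.22 to 5.20 CPM to 1.03 to 1.5 CPM in 4T1. The part of these marker levels in the results that follow was not tested.

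AP-1 is a pair of basic leucine zipper (bZIP) proteins that binds DNA as a dimer. JUN proteins can pair with each other or with a FOS protein, whereas FOS proteins need a partner of another family. Small MAF proteins have a bZIP domain but no transactivation domain, and they pair with one another or with cap'n'collar and BACH proteins at antioxidant response elements. Growth factor signals passing through MAPK cascades raise transcription of many of these genes within minutes, and FOSL1 together with JUN is known for driving protease, cytokine and migration genes in aggressive breast cancer cells.

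Promoter sequence is shown for 5 of the human genes, chosen after the windows had been searched, so that the letters found can be seen: *FOS* and *FOSB*, which rose in MDA-MB-231, *JUN* and *MAFF*, which fell there, and *JUND*, which was not called. RefSeq windows (GRCh38.p14) of 300 bases, from 250 before to 50 after the gene start, were matched for 8 of the 10 human members, with 9 windows because *MAFF* has a pair of starts. *FOSL1* and *MAFK* were not matched. The pieces below run 5′ to 3′ in the direction of the gene from 110 to 11 bases before its start, except for *MAFF*, where 30 bases from 65 to 36 before the start are given. All 30 of these *MAFF* bases lie within annotated exon, past the GENCODE start of the gene at 38200767. Capitals mark TGACATCA in *JUN*, TGACGT in *FOS* and *FOSB*, the same letters on the other strand in *JUND*, and TGACGTCA in *MAFF*.
FOS (chr14:75278718-75278817, plus strand): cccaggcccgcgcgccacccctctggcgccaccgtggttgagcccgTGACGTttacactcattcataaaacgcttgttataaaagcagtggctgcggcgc
FOSB (chr19:45467886-45467985, plus strand): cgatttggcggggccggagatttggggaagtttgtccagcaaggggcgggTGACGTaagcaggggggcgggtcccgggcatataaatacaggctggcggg
JUN (chr1:58784058-58784157, minus strand): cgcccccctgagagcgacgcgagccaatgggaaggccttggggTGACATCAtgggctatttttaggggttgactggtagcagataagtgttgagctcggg
JUND (chr19:18281633-18281732, minus strand): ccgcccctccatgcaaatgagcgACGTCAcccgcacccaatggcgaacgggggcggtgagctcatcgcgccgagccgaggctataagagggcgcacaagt
MAFF (chr22:38201929-38201958, plus strand): ggccgggtcggTGACGTCAccgcatgactg

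Both strands of every window were searched for the AP-1 site TGACTCA, the cyclic AMP response element TGACGTCA, the serum response factor site known as the CArG box and the MAF half-site TGCTGAC. TGACGTCA was found in *JUND*, 200 bases before the start, and in *MAFF*, 54 bases before it, and is held by 1.85% of all 35116 promoter windows. TGACTCA was found in *FOSL2* alone among the members, 5 bases after the start, against 4.95% of all windows. Neither the CArG box (1.29% of windows) nor TGCTGAC (4.19%) was found in a member's window. Sequence further than 250 bases before a start was not searched, so sites there could not be found. After the sequences had been seen, the shorter TGACGT, which lies within TGACGTCA, was added and was found 64 bases before the start of *FOS*, 60 before *FOSB*, 66 before *FOSL2*, 87 before *JUND* and 4 bases after the start of *MAFG*, besides its place within the TGACGTCA of *JUND* and *MAFF*, against 7.98% of windows. TGACATCA was added in the same way and was found 67 bases before the start of *JUN*, against 2.61% of windows. A match of letters is a description of the window, and genes with a match rose (*FOS* and *FOSB*), fell (*JUN*, *MAFF* and *MAFG*) or were not called (*FOSL2* and *JUND*) in MDA-MB-231.

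In MDA-MB-231, 4 of the 10 members fell with ponatinib (*FOSL1*, *JUN*, *MAFF* and *MAFG*) and 2 rose (*FOS* and *FOSB*) at an adjusted p-value under 0.05 in edgeR's quasi-likelihood test. Of all genes tested in this line, 26.8% fell and 27.2% rose by the same threshold, 54% in either direction. In 4T1, 7 of the 10 fell (*Fosb*, *Fosl1*, *Fosl2*, *Jun*, *Jund*, *Maff* and *Mafk*), against 29.4% of all genes, of which 59% were called in either direction. The count of members that rose in 4T1 was 0 in edgeR, against 29.5% of all genes, and it was also 0 at an unadjusted p-value under 0.05 and 0 with DESeq2. *FOSL1*, *JUN* and *MAFF* were the 3 members lower in both lines, *FOSB* moved in opposite directions, and *JUNB* was called in neither line. The shares of all genes with these patterns across the lines were not computed. The libraries of DMSO and ponatinib did not overlap for 4 members on the lower and 3 on the higher side in MDA-MB-231 (29.8% and 30.6% of all genes, 60.4% on either side), and for 7 on the lower side in 4T1 (30.8% of all genes, 63.4% on either side). The study called changed genes in DESeq2 by an unadjusted p-value under 0.05 with a change of at least 1.5-fold. At this threshold, applied here to edgeR's values, MDA-MB-231 had 4 lower members and 2 higher ones (14.5% and 19.3% of all genes), and 4T1 had 5 lower ones (13.1%). The study's gene ontology analysis of lowered genes used a stricter fold change, which was not counted here.

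**Figure D1:**
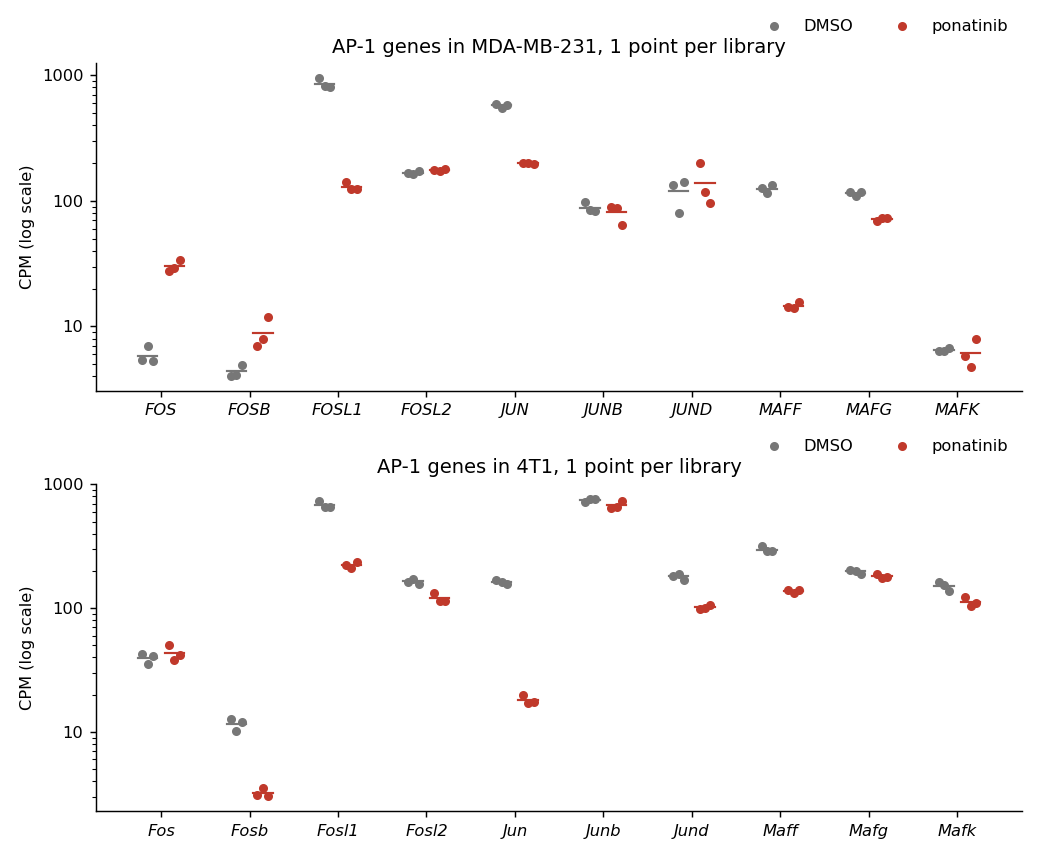
Level of each AP-1 gene in every library, as CPM on a log axis, in MDA-MB-231 (top) and 4T1 (bottom). Each point is 1 library (grey for DMSO, red for ponatinib) and each short line is the mean of 3 libraries. The mean of *FOSL1* went from 857 to 130 CPM in the human line and that of *Jun* from 161 to 18.1 CPM in the mouse line, while the points of *JUNB* overlap in both lines.

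*FOSL1* had the highest level per kb of exon of the FOS family in both lines, with either treatment, and fell in both lines. It encodes a FOS protein without the transactivation domain of FOS itself. The gene (chr11:65892049-65900573, hg38, 4 exons in its canonical transcript) measured 946, 820 and 805 CPM in the MDA-MB-231 libraries with DMSO and 141, 124 and 125 CPM in those with ponatinib. Every ponatinib library lay below every DMSO library. In bulk RNA, fewer expressing cells and less RNA per cell cannot be told apart. The fall was 6.6-fold (log2 fold change -2.72 ± 0.09 SE, edgeR adjusted p = 2.73e-09) and was the 55th largest fall among the 14610 genes tested. In 4T1, *Fosl1* (chr19:5497575-5505974, GRCm39) measured 739, 654 and 658 CPM with DMSO and 222, 210 and 234 CPM with ponatinib, again without overlap. This fall was 3.08-fold (log2 -1.62 ± 0.08, adjusted p = 7.31e-10). The mouse gene shares 1163 exonic bases with *Ccdc85b* on the other strand, which changed by 0.30 on the log2 scale (adjusted p = 0.0120). Whether counting used strand is not given in the sources used here, so reads of the shared bases cannot be told apart.

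*FOS*, the immediate early gene of the family, went the other way in MDA-MB-231. The gene (chr14:75278826-75282230, hg38) measured 5.37, 6.93 and 5.28 CPM with DMSO and 27.8, 29.4 and 34.0 CPM with ponatinib, from 81 to 107 counts per library and from 441 to 621 counts. The ponatinib libraries were all higher, by 5.19-fold on average (log2 2.38 ± 0.14, adjusted p = 1.35e-07), and this was the 250th largest rise. In 4T1, *Fos* measured 42.9, 35.5 and 40.9 CPM with DMSO and 49.9, 37.8 and 41.6 CPM with ponatinib, and these libraries overlapped. Its log2 fold change was 0.12 with a 95% confidence interval of -0.12 to 0.35 (adjusted p = 0.377), and without ponatinib replicate 1 it was -0.00361.

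*FOSB*, a close relative of *FOS* that is also induced as an immediate early gene, was low in both lines and moved in opposite directions. In MDA-MB-231 (chr19:45467995-45475179, hg38) it measured 4.05, 4.14 and 4.97 CPM with DMSO and 6.94, 7.96 and 11.9 CPM with ponatinib, from 61 to 79 and from 110 to 218 counts. The rise was 2.05-fold (log2 1.03 ± 0.21, adjusted p = 0.00162), with the highest ponatinib library well above the other two. In 4T1, *Fosb* measured 12.8, 10.1 and 12.1 CPM with DMSO and 3.12, 3.51 and 3.04 CPM with ponatinib, from 182 to 225 and from 56 to 68 counts. Here the fall was 3.61-fold (log2 -1.85 ± 0.16, adjusted p = 1.62e-07), and the groups did not overlap in either line.

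*FOSL2*, which like *FOSL1* encodes a FOS protein without that domain, was the steadiest FOS gene in MDA-MB-231. It measured 168, 162 and 172 CPM with DMSO and 177, 175 and 179 CPM with ponatinib, so that the groups did not overlap, yet its log2 fold change was 0.08 with a 95% confidence interval of -0.07 to 0.23 (adjusted p = 0.353). On total counts without a composition factor the value was 0.17 with an adjusted p of 0.04999, just inside the threshold. In 4T1, *Fosl2* measured 164, 172 and 157 CPM with DMSO and 133, 114 and 114 CPM with ponatinib, a 1.36-fold fall (log2 -0.45 ± 0.08, adjusted p = 0.000242).

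*JUN*, the founding member of the family and a substrate of the JNK kinases, fell in both lines. In MDA-MB-231 this gene (chr1:58776845-58784048, hg38, minus strand), whose canonical transcript has 1 exon, measured 594, 554 and 581 CPM with DMSO and 202, 199 and 198 CPM with ponatinib. The 3 ponatinib libraries were nearly equal and far below the controls, with a 2.89-fold fall (log2 -1.53 ± 0.07, adjusted p = 2.12e-08). In 4T1, *Jun* (chr4:94937271-94940459, GRCm39) measured 167, 162 and 155 CPM with DMSO and 19.9, 17.0 and 17.3 CPM with ponatinib. The 8.91-fold fall (log2 -3.16 ± 0.09, adjusted p = 7.42e-12) was the 54th largest among 13286 genes and the largest of any member in this line.

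*JUNB*, a JUN gene whose product often opposes JUN in proliferation, was not called in either line. It measured 97.6, 84.4 and 83.0 CPM with DMSO and 90.1, 88.3 and 64.7 CPM with ponatinib in MDA-MB-231, with overlapping groups. The log2 fold change was -0.13 with a 95% confidence interval of -0.39 to 0.14 (adjusted p = 0.408), and 0.015 without ponatinib replicate 3. *Junb* measured 718, 755 and 767 CPM with DMSO and 648, 655 and 736 CPM with ponatinib in 4T1. The log2 fold change there was -0.14 with an interval of -0.30 to 0.03 (adjusted p = 0.151), so a fall of more than 0.39 in MDA-MB-231 or 0.30 in 4T1 lies outside these intervals. Exons of *JUNB* overlap those of *HOOK2* on the other strand by 259 bases, and *HOOK2* rose by 0.92 on the log2 scale in MDA-MB-231. Those of *Junb* overlap *Prdx2* on the other strand by 173 bases, and *Prdx2* rose by 0.39 in 4T1. Reads of the shared bases cannot be told apart.

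*JUND*, usually the most constantly expressed JUN gene, varied more between libraries of a group than any other member in MDA-MB-231. It measured 134, 80.5 and 142 CPM with DMSO and 199, 118 and 96.0 CPM with ponatinib. The groups overlapped, and the log2 fold change of 0.21 had a 95% confidence interval of -0.33 to 0.76 (adjusted p = 0.492). The value was -0.15 without ponatinib replicate 1 and -0.011 without DMSO replicate 2. In 4T1 the libraries of *Jund* lay close together, at 183, 190 and 169 CPM with DMSO and 99.3, 101 and 105 CPM with ponatinib, a 1.77-fold fall (log2 -0.83 ± 0.07, adjusted p = 2.88e-07).

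*MAFF*, a small MAF gene that responds to growth and stress signals, showed the largest fall of any member in MDA-MB-231. It (chr22:38200767-38216507, hg38) measured 126, 116 and 134 CPM with DMSO and 14.3, 14.1 and 15.6 CPM with ponatinib. The groups lay far apart, with an 8.53-fold fall (log2 -3.09 ± 0.09, adjusted p = 1.10e-09) that ranked 31st in the line. *MAFF* shares 326 exonic bases with *PLA2G6* on the other strand, which rose from 3.36 to 22.5 CPM (log2 2.74, adjusted p = 5.27e-08), and reads of the shared bases cannot be told apart. In 4T1, *Maff* measured 315, 288 and 288 CPM with DMSO and 141, 133 and 140 CPM with ponatinib, a 2.15-fold fall (log2 -1.10 ± 0.07, adjusted p = 1.42e-08).

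*MAFG*, a broadly expressed small MAF gene, fell in MDA-MB-231 and was not called in 4T1. The human gene measured 117, 109 and 118 CPM with DMSO and 69.5, 72.8 and 72.4 CPM with ponatinib, a 1.6-fold fall without overlap (log2 -0.68 ± 0.07, adjusted p = 1.51e-05). The mouse gene measured 203, 201 and 189 CPM with DMSO and 190, 174 and 178 CPM with ponatinib, with a log2 fold change of -0.13 and a 95% confidence interval of -0.28 to 0.02 (adjusted p = 0.130). *SIRT7*, which lies on the same strand and shares 105 exonic bases with *MAFG*, rose by 0.63 in MDA-MB-231, and *Sirt7* rose by 1.17 in 4T1 (125 shared bases).

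*MAFK* was low in MDA-MB-231, at 6.43, 6.41 and 6.79 CPM with DMSO and 5.87, 4.78 and 7.89 CPM with ponatinib, and the groups overlapped. Its log2 fold change was -0.08 with a 95% confidence interval of -0.49 to 0.34 (adjusted p = 0.754), 0.073 without ponatinib replicate 2 and 0.019 on total counts. It shares 809 exonic bases with *TMEM184A* on the other strand, itself at 4.24 CPM with DMSO and 5.62 CPM with ponatinib. *Mafk* was well expressed in 4T1, at 163, 153 and 137 CPM with DMSO and 123, 104 and 110 CPM with ponatinib, a 1.34-fold fall (log2 -0.42 ± 0.09, adjusted p = 0.000690).

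**Figure D2:**
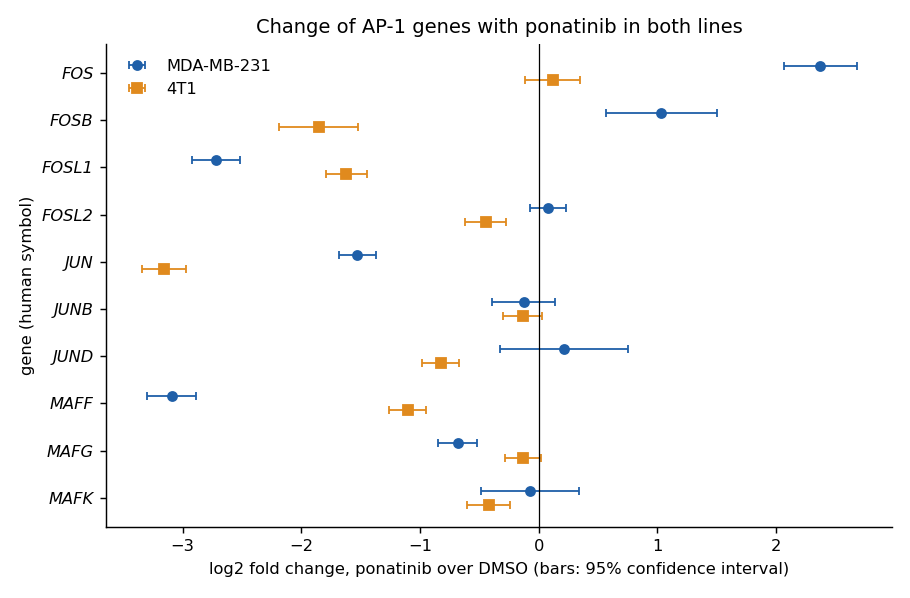
Log2 fold change of ponatinib over DMSO for each AP-1 gene in MDA-MB-231 (blue circles) and 4T1 (orange squares), with 95% confidence intervals from edgeR as bars. *FOS* stands at 2.38 in MDA-MB-231 and 0.12 in 4T1, *FOSB* lies on opposite sides of 0 in the lines, and the intervals of *JUNB* include 0 in both.

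The size of the response to ponatinib differed between the lines for 8 of the 10 members, by edgeR's test of the line-by-treatment interaction, against 41.9% of the 12488 genes that could be compared across species. *FOS* was 2.33 ± 0.19 (SE) higher in its log2 response in MDA-MB-231 than in 4T1 (adjusted p = 1.23e-08), and *FOSB* was 2.96 ± 0.27 higher (adjusted p = 6.79e-08). *JUN* fell less in MDA-MB-231 by 1.70 ± 0.11 (adjusted p = 5.35e-10), and the responses of *FOSL2* and *JUND* were higher there by 0.60 ± 0.11 (adjusted p = 0.000163) and 1.11 ± 0.28 (adjusted p = 0.00356). In the other direction, *FOSL1*, *MAFF* and *MAFG* responded more strongly downward in MDA-MB-231. Their differences were -1.03 ± 0.12 (adjusted p = 1.70e-06), -1.92 ± 0.11 (adjusted p = 2.34e-10) and -0.48 ± 0.10 (adjusted p = 0.000743). For *MAFK* the difference of 0.42 (95% confidence interval 0.02 to 0.82) did not pass the threshold (adjusted p = 0.0834), while with the replicate number as a block it was 0.41 with an adjusted p of 0.0232. For *JUNB* the difference was 0.08, with an interval of -0.23 to 0.40 (adjusted p = 0.722). Species, line and genome annotation differ together here and cannot be told apart.

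Levels of different genes were compared as CPM per kb of annotated exon, and their order depends in part on this length. With the length of the longest transcript instead, 44 of 45 pairs of members kept their order with DMSO in MDA-MB-231. With ponatinib 43 did. In MDA-MB-231 with DMSO, *FOSL1* stood first at 454 ± 41.1 CPM per kb (SD, n = 3), followed by *JUN* at 159 ± 5.63, and both lay clear of the next gene. *JUND* (61.6 ± 17.3) and *JUNB* (48.3 ± 4.41) overlapped each other. *MAFF* (22.3) overlapped both *FOSL2* (23.4) and *MAFG* (21.9), which did not overlap each other. *FOS*, *MAFK* and *FOSB* lay between 1.84 and 0.790 CPM per kb. With ponatinib the highest means were those of *JUND* at 71.5 ± 28.2 and *FOSL1* at 68.8 ± 5.06, whose ranges overlapped. *JUN* at 55.1 ± 0.553 and *JUNB* at 44.3 ± 7.75 came next by their means. The range of *JUND* (49.8 to 103) also spanned that of *JUN* (54.6 to 55.7), so these genes cannot be put in order. *FOS* reached 9.55 CPM per kb and lay above *MAFF* at 2.61, the reverse of their order with DMSO. At the bottom, *FOSB* (1.61) and *MAFK* (1.38) overlapped.

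In 4T1, 42 of 45 pairs of members kept their order with DMSO, and 43 with ponatinib, when the longest transcript's length was used. The order given here therefore holds for exon length only. With DMSO, *Fosl1* (336 ± 23.6 CPM per kb) and *Junb* (314 ± 10.9) shared the top with overlapping ranges. They were followed by *Jund* (108), *Maff* (93.2) and *Jun* (50.6), each clear of the next by this length. *Mafk* (26.8) and *Mafg* (23.2) came after them, *Fos* (16.9) and *Fosl2* (15.8) overlapped, and *Fosb* was lowest at 1.87 CPM per kb. With ponatinib *Junb* stood alone at the top at 286 ± 20.5 CPM per kb, with *Fosl1* at 109 ± 5.87. *Jun* dropped from the fifth place to the ninth, at 5.67 ± 0.502 CPM per kb, below *Fosl2* at 11.6 and above *Fosb* at 0.516.

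The summed level of every family was lower with ponatinib in both lines, by the most for the FOS family. It was 480 ± 40.9 CPM per kb with DMSO and 105 ± 4.29 with ponatinib in MDA-MB-231, 4.59-fold lower, and 371 ± 24.8 against 140 ± 7.47 in 4T1, 2.66-fold lower. The JUN family went from 269 ± 24.7 to 171 ± 34.7 CPM per kb in MDA-MB-231 (1.57-fold lower) and from 473 ± 9.12 to 352 ± 22.2 in 4T1 (1.34-fold lower). Small MAF genes together went from 45.7 ± 2.61 to 17.6 ± 0.644 CPM per kb in MDA-MB-231 (2.59-fold lower) and from 143 ± 7.66 to 84.6 ± 3.97 in 4T1 (1.69-fold lower). Libraries did not overlap for any family in either line, and the exact two-sided permutation p was 0.1 each time, the smallest that 3 against 3 libraries allow, so no sum could pass 0.05. Sums made on total counts or on median-of-ratios size factors, tried after the data had been seen, were also lower with ponatinib for all 3 families in both lines.

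**Figure D3:**
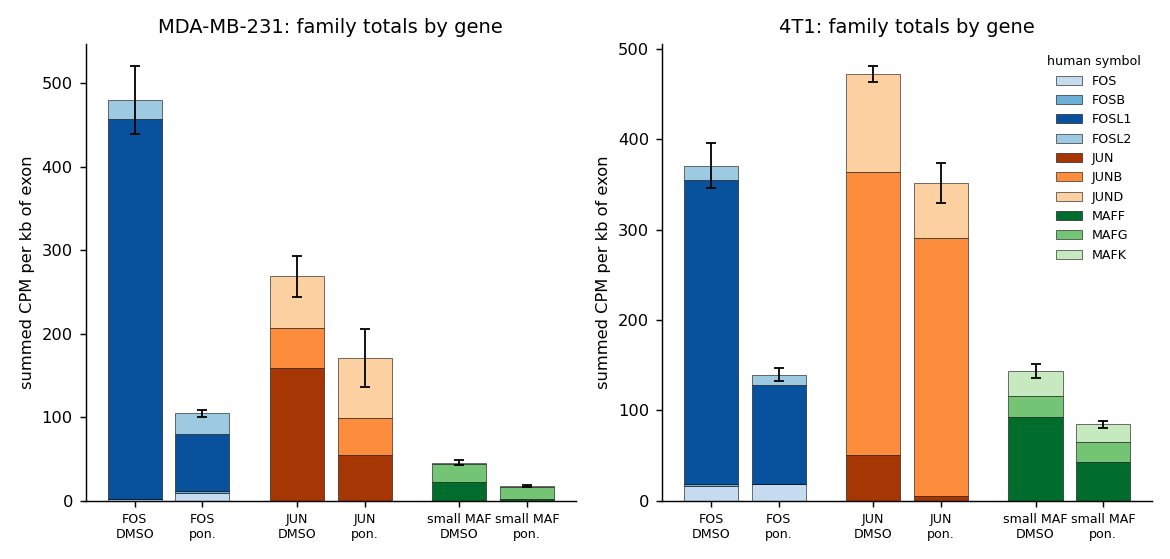
Summed level of the FOS, JUN and small MAF families in CPM per kb of exon with DMSO and ponatinib (pon.) for MDA-MB-231 on the left and 4T1 on the right. Stacked segments are the means of single genes over 3 libraries and bars are the SD of the sum. The FOS total went from 480 to 105 in MDA-MB-231, nearly all of it in the *FOSL1* segment, and the *JUNB* segment makes up most of the JUN total in 4T1.

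The share of each gene in its family also lay apart between treatments. In MDA-MB-231, *FOSL1* went from 94.6% ± 0.494 (SD, n = 3) of the FOS family's summed level to 65.7% ± 2.40, while *FOSL2* went from 4.89% to 23.6% and *FOS* from 0.386% to 9.14%. *JUN* went from 59.3% ± 3.59 to 33.1% ± 6.17 of its family, and *JUND* from 22.6% to 40.8%. *MAFF* went from 48.8% to 14.8% of the small MAF level and *MAFG* from 48.0% to 77.4%. *FOSL2*, whose own mean level differed little (167 and 177 CPM), thus made up a larger share of a smaller sum.

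In 4T1, *Fosl1* held the largest share of the FOS family and *Junb* that of the JUN family with either treatment. *Fosl1* went from 90.7% ± 0.294 to 78.2% ± 2.03 and *Fos* from 4.55% to 13.1%. *Junb* went from 66.4% ± 1.71 to 81.0% ± 0.708 while *Jun* went from 10.7% to 1.62% and *Jund* from 22.9% to 17.4%. *Maff* went from 65.1% to 51.3% and *Mafg* from 16.2% to 25.1% of the small MAF level. The groups did not overlap for any member's share in either line, with an exact permutation p of 0.1. With the length of the longest transcript in place of all exons the shares of all 10 members per line still did not overlap. Shares in a family are parts of the same sum, so a fall of its largest gene raises the others. The 10 members are therefore not separate observations here.

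Genes around AP-1 were described by lists written from general knowledge, but with earlier results of these data known. Their counts and medians are therefore no independent test. The median over all genes was 0.02 on the log2 scale for MDA-MB-231 and 0.00 for 4T1. Among 33 well-known AP-1 target genes, 29 were tested in MDA-MB-231, of which 20 fell and 4 rose (26.8% and 27.2% of all genes), with a median of -1.23. In 4T1, 28 were tested, of which 25 fell and 2 rose (29.4% and 29.5% of all genes), with a median of -1.34. Of the 25 targets tested in both lines, 14 fell in both and 5 moved in opposite directions. The share of all genes with either pattern was not computed, so these counts only describe the list.

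The largest falls among the targets in MDA-MB-231 were those of cytokine and prostaglandin genes. *IL11*, a cytokine of the interleukin 6 group, fell from 76.7 to 5.33 CPM (log2 -3.85 ± 0.13, adjusted p = 2.22e-09). *PTGS2*, which encodes the inducible cyclooxygenase, fell from 41.8 to 3.80 CPM (log2 -3.46 ± 0.15, adjusted p = 1.5e-08), and *CSF2*, the gene of the granulocyte-macrophage colony-stimulating factor, fell from 10.1 to 1.13 CPM (log2 -3.18 ± 0.26, adjusted p = 1.46e-06). The rises were smaller: *FN1* (fibronectin) rose from 123 to 207 CPM (log2 0.75), *DUSP1*, a phosphatase of MAP kinases, from 131 to 184 CPM (log2 0.49), and *VEGFA*, an angiogenic growth factor, from 46.2 to 60.0 CPM (log2 0.38). In 4T1, *Csf2* fell from 76.2 to 9.06 CPM (log2 -3.07 ± 0.11, adjusted p = 2.66e-11), *Mmp13*, a collagenase gene, from 147 to 18.6 CPM (log2 -2.98 ± 0.12, adjusted p = 5.59e-11), and *Ptgs2* from 1094 to 147 CPM (log2 -2.90 ± 0.09, adjusted p = 8.19e-12). *Ccl2*, a monocyte chemokine, rose from 121 to 329 CPM (log2 1.44) and *Sphk1*, a sphingosine kinase, from 17.8 to 27.6 CPM (log2 0.63).

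Targets of small MAF heterodimers, mostly antioxidant and iron-storage genes, were counted in the same way, and their counts were not tested against those of the AP-1 targets. In MDA-MB-231, 2 of 11 tested fell and 7 rose (26.8% and 27.2% of all genes), with a median of 0.32. The count of 7 was 3 without DMSO replicate 3 and 4 without DMSO replicate 2 or ponatinib replicate 2. *GCLM*, a subunit of the enzyme that starts glutathione synthesis, fell from 55.9 to 28.0 CPM (log2 -0.997 ± 0.10) and *OSGIN1* from 39.8 to 24.8 CPM (log2 -0.69), whereas the ferritin gene *FTH1*, which has near-identical pseudogenes that make its count uncertain, rose from 459 to 991 CPM (log2 1.11 ± 0.21) and the heme oxygenase gene *HMOX1* from 41.1 to 67.2 CPM (log2 0.71). In 4T1, 5 of 11 fell and 5 rose (29.4% and 29.5% of all genes), with a median of -0.17. *Gclm* rose from 33.3 to 79.2 CPM (log2 1.25 ± 0.08), *Gclc*, its catalytic partner, from 167 to 253 CPM (log2 0.60) and *Fth1* from 2812 to 3871 CPM (log2 0.46), while the cystine transporter gene *Slc7a11* fell from 212 to 118 CPM (log2 -0.84), *Osgin1* from 229 to 175 CPM (log2 -0.39) and *Me1*, which encodes malic enzyme, from 326 to 252 CPM (log2 -0.37).

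**Figure D4:**
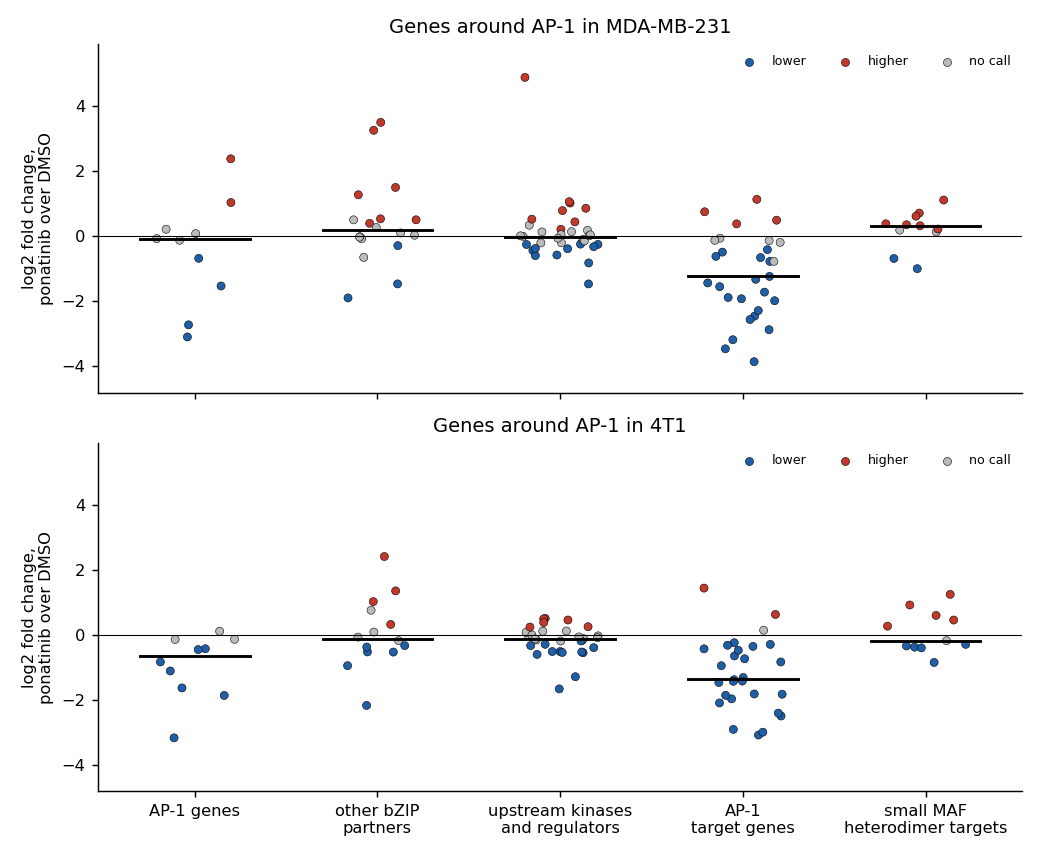
Log2 fold change of ponatinib over DMSO for the 10 AP-1 genes and 4 lists of genes around them in MDA-MB-231 (top) and 4T1 (bottom). Each point is 1 tested gene (blue lower, red higher, grey not called by edgeR) and each thick line is the median of the list. The median of the AP-1 target genes is -1.23 in MDA-MB-231 and -1.34 in 4T1.

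Other bZIP genes that can pair with AP-1 or small MAF proteins were counted next. Of 18 tested in MDA-MB-231, 3 fell and 7 rose (26.8% and 27.2% of all genes), with a median of 0.18. *BATF3*, which pairs with JUN proteins, fell from 29.9 to 8.0 CPM (log2 -1.90 ± 0.15) and *NFE2L3* from 60.2 to 49.3 CPM (log2 -0.29), while *DDIT3*, a gene of the stress response, rose from 11.6 to 32.6 CPM (log2 1.5 ± 0.18), *JDP2*, a repressor that dimerises with JUN, from 45.3 to 109 CPM (log2 1.27 ± 0.09) and *NFE2L1* from 284 to 411 CPM (log2 0.53). Of 14 tested in 4T1, 6 fell and 4 rose (29.4% and 29.5% of all genes), with a median of -0.12. *Creb5* fell from 44.7 to 9.98 CPM (log2 -2.16 ± 0.13), *Atf3*, a stress-induced gene, from 361 to 188 CPM (log2 -0.94 ± 0.07) and *Bach1*, a repressor that pairs with small MAF proteins, from 29.4 to 20.4 CPM (log2 -0.52). *Maf* rose from 12 to 24.4 CPM (log2 1.03 ± 0.13) and *Jdp2* from 67.3 to 84.3 CPM (log2 0.33).

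Kinases and regulators upstream of AP-1 were counted by their transcripts. In MDA-MB-231, 11 of 34 tested fell and 8 rose (32.4% and 23.5%, against 26.8% and 27.2% of all genes), with a median of -0.03, and 7 fell without DMSO replicate 3. *ELK3*, a partner of serum response factor, fell from 141 to 51.1 CPM (log2 -1.47 ± 0.10), *MAP2K1*, an activator of the ERK kinases, from 68.2 to 38.5 CPM (log2 -0.82 ± 0.10) and *MAPK13*, a p38 kinase gene, from 58.2 to 38.5 CPM (log2 -0.60). *MAP2K6*, an activator of p38 kinases, rose from 0.410 to 12.2 CPM (log2 4.87 ± 0.22, adjusted p = 1.92e-08), *RPS6KA2*, of the ribosomal S6 kinase family, from 49.6 to 100 CPM (log2 1.02 ± 0.09) and *MAP2K5* from 16.3 to 29.5 CPM (log2 0.86 ± 0.12). In 4T1, 12 of 31 fell and 6 rose (38.7% and 19.4%, against 29.4% and 29.5% of all genes), with a median of -0.12. *Rps6ka2* fell from 44.1 to 14.0 CPM (log2 -1.65 ± 0.11), *Creb1* from 64.3 to 42.6 CPM (log2 -0.59) and *Mef2a* from 47.3 to 32.5 CPM (log2 -0.54), while *Rps6ka1*, *Det1* and *Mapk9* rose by 0.51, 0.50 and 0.46 on the log2 scale.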

How the data were processed

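RNA-seq counts from 12 libraries were analysed. According to the study's methods, the authors took out adapters and poly-N reads, mapped what remained with HISAT2 (hg38 for human, GRCm39 for mouse) and used HTSeq to count reads in genes. Values were deposited as whole counts that had not been normalized, and tool versions, annotation and strand setting are not given in the sources used here. Gene symbols and coordinates came from GENCODE, which matched 81.9% of human and 91.1% of mouse identifiers, holding 99.3% and 99.8% of the counts.

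Each line was fitted apart in edgeR 4.0.16 (R 4.3.3) with filterByExpr, TMM normalization, the quasi-likelihood test and Benjamini-Hochberg adjustment over all tested genes. CPM used TMM-scaled totals. The lines were compared by a line-by-treatment interaction term over genes whose human and mouse symbols match. This joint fit was normalized over those genes, so its differences need not equal those between the separate fits. Members, lists and tests were chosen with earlier results of these data known. Named genes were all members and, from each list and line, up to 3 largest falls and 3 largest rises among genes past the threshold with at least 10 CPM in the higher group, except 1 listed gene that is not reported here. The edgeR test within each line was checked on simulated data in which all genes had the same spread, unlike the real data. The interaction test, DESeq2 and the replicate block were not checked in this way.

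Replicates of a group differed beyond counting noise. Deviations of same-numbered DMSO and ponatinib libraries from their group means correlated at 0.498, 0.175 and 0.218 for the human line and at 0.278, 0.185 and 0.153 for the mouse line. As every value exceeded 0.1, a block for the replicate number was fitted as an alternative, although the labels do not say what a number marks. The main tests had no such block and did not pair libraries. Alternatives were DESeq2 1.42.0, its size factors in edgeR, total counts, other filters, the replicate block, the study's threshold and leaving out each library. Protein sequences and mouse promoters were not analysed here.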

Additional observations from a re-analysis of the deposited data

Results flagged for a closer look

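The response to ponatinib differed between MDA-MB-231 and 4T1 for 8 of the 10 AP-1 genes in edgeR's line-by-treatment interaction test, against 41.9% of all genes tested. Values are the log2 fold change in MDA-MB-231 minus that in 4T1 as estimated in the joint fit of both lines. They can differ slightly from the difference of the values fitted in each line apart. The difference was 2.33 for *FOS*, which rose in all 3 MDA-MB-231 libraries and overlapped its controls in 4T1. It was 2.96 for *FOSB*, whose libraries did not overlap in either line and moved in opposite directions. For *JUN* it was 1.70 and for *FOSL1* -1.03, and both genes fell in every ponatinib library of both lines. *FOSL2* differed by 0.60 and *JUND* by 1.11, and for *JUND* the MDA-MB-231 libraries ranged from 80.5 to 199 CPM over both treatments. *MAFF* differed by -1.92 and *MAFG* by -0.48, with the larger falls in MDA-MB-231.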

How the results depend on the processing

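Counts of members lower or higher within a line, or differing between lines, stayed within 1.5 times of their reported values under every alternative run. No called member changed direction, and none lost its call except at the study's threshold, where *Fosl2* (1.36-fold) and *Mafk* (1.34-fold) in 4T1 did not pass and 5 members were lower there in place of 7. With the replicate block, *MAFK* differed between the lines by 0.41 (edgeR adjusted p = 0.0232), so that 9 members differed in place of 8. The block changed no member's call within a line and no list count by over 1.5 times. Without MDA-MB-231 ponatinib replicate 2 the *MAFK* difference was 0.57 (adjusted p = 0.0187), which also passed the threshold.

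On total counts the median over all genes moved from 0.02 to 0.11 on the log2 scale for the human line, where 3097 genes were lower and 4641 higher in place of 3918 and 3975. For the mouse line it moved to 0.12, with 2935 lower and 4854 higher in place of 3909 and 3925. On this scaling *MAFK* in MDA-MB-231 was at 0.019, the *JUNB* difference between lines at -0.018 and *FOSL2* in MDA-MB-231 at 0.17, and 7 upstream genes fell there in place of 11.

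Leaving out each library in turn, log2 fold changes of uncalled genes in MDA-MB-231 ranged from -0.21 to 0.015 for *JUNB* (highest without ponatinib replicate 3), from -0.15 to 0.42 for *JUND* (-0.15 without ponatinib replicate 1, -0.011 without DMSO replicate 2) and from -0.30 to 0.073 for *MAFK* (highest without ponatinib replicate 2). *Fos* in 4T1 ranged from -0.0036 (without ponatinib replicate 1) to 0.21. The *JUNB* difference between lines ranged from -0.0097 to 0.22, and was below 0 without MDA-MB-231 ponatinib replicate 1 (-0.0045), 4T1 ponatinib replicate 1 (-0.0097) and 4T1 ponatinib replicate 2 (-0.0020). Upstream genes lower in MDA-MB-231 numbered 7 to 10 and small MAF targets higher 3 to 6.

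At the study's threshold, list counts in MDA-MB-231 were 4 bZIP partners higher, 3 upstream genes lower and 5 higher, 2 AP-1 targets higher and 3 small MAF targets higher. In 4T1 they were 2 partners lower, 3 upstream genes lower and 0 higher, and 1 small MAF target lower and 3 higher. This threshold asks for a larger change. The causes of the other shifts were not tested. Low counts limit *FOSB* (61 to 218 per library), *MAFK* (75 to 144) and, with DMSO, *FOS* (81 to 107) in MDA-MB-231. They also limit *Fosb* in 4T1, at 182 to 225 counts with DMSO and 56 to 68 with ponatinib.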

Other observations

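Several genes named around AP-1 moved in opposite directions in the lines, with the difference itself tested by the interaction in edgeR. They were picked after their values had been seen. *DUSP1* rose by 0.49 in MDA-MB-231 and fell by 2.40 in 4T1 on the log2 scale, a difference of 2.96 ± 0.13 (SE, adjusted p = 3.88e-12). *FN1* rose by 0.75 in MDA-MB-231, reaching 207 CPM, and fell from 3414 to 970 CPM in 4T1 (difference 2.64 ± 0.16, adjusted p = 3.46e-10), and *VEGFA* rose by 0.38 and fell by 0.64 (difference 1.09 ± 0.11, adjusted p = 2.65e-07). *SPHK1* went the other way, from 239 to 64.8 CPM in MDA-MB-231 and from 17.8 to 27.6 CPM in 4T1 (difference -2.44 ± 0.17, adjusted p = 1.40e-09).

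Among the genes of antioxidant defence, *GCLM* fell by 0.997 in MDA-MB-231 and rose by 1.25 in 4T1 (difference -2.17 ± 0.13, adjusted p = 2.80e-10), whereas *HMOX1* rose by 0.71 and fell by 0.29 (difference 1.07 ± 0.12, adjusted p = 5.64e-07). Upstream, *MAP2K6* rose by 4.87 in MDA-MB-231, where it was at 0.410 CPM with DMSO, and fell from 179 to 137 CPM in 4T1 (difference 5.34 ± 0.22, adjusted p = 1.63e-12). *RPS6KA2* rose by 1.02 and fell by 1.65 (difference 2.74 ± 0.14, adjusted p = 3.15e-11).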
